A study of Rattus norvegicus with 6 samples.

Results

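The GDNF family comprises 4 secreted ligands, Gdnf, neurturin (Nrtn), artemin (Artn) and persephin (Pspn), 4 ligand-binding co-receptors, Gfra1, Gfra2, Gfra3 and Gfra4, and the receptor tyrosine kinase Ret. These 9 genes were chosen by symbol, and each had 1 single-gene probe set, so 9 of the 14506 genes measured are described. A ligand dimer of this family binds a co-receptor that is anchored to the cell surface by a lipid tail, and the complex brings Ret molecules together so that they phosphorylate each other and recruit adaptor proteins. By preference Gdnf binds Gfra1, neurturin Gfra2, artemin Gfra3 and persephin Gfra4. The family is best known for the survival and migration of autonomic, enteric and dopaminergic neurons, and the carotid body is a known source of Gdnf.

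RNA came from neurospheres, floating cell clusters that formed over 10 days in culture from the separated cells of adult rat carotid bodies. The carotid body lies where the carotid artery divides and senses blood oxygen. The 3 arrays labelled undifferentiated came from spheres kept in complete neural crest medium with FGF, IGF-1, EGF and ET-1 as mitogens, in normal oxygen. The 3 arrays labelled differentiated came from spheres in neural crest medium that lacked these mitogens, at 3% oxygen, so mitogens and oxygen changed together. The labels name no strain, age beyond adult, genotype or pooling of animals, and the spheres are mixed cultures. The series set out to find pathways that separate neuron-rich spheres from spheres of undifferentiated cells.

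The median log2 value of an array was 5.05 to 5.13, and arrays correlated at 0.986 to 0.993 within groups and at 0.959 to 0.970 between them. Th, which makes the catecholamine precursor L-DOPA in glomus cells, the sensory cells of the carotid body, was 13.76 in the arrays labelled undifferentiated and 10.90 in those labelled differentiated (limma adjusted p = 5.09e-07). This marker of the neuron-like cells was thus lower in the group labelled differentiated, which the series describes as neuron-rich. The groups are called by their labels only, and each difference is labelled differentiated minus labelled undifferentiated. The sign of every difference rests on these labels, and whether they match the cultures was not tested.

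In the arrays labelled differentiated Ret, the shared signalling receptor, was 12.2-fold lower, while the ligand and co-receptor genes differed by at most 1.37-fold. Of the 9 genes, 1 rose (Artn), 3 fell (Ret, Gfra2 and Gdnf) and 5 did not pass a limma adjusted p of 0.05. Of all 14506 genes 29.5% passed, 14.7% higher and 14.9% lower. The median difference of the 9 genes was 0.05 and that of all genes 0.06. In 5 of the 9 genes, those 4 and Gfra4, the groups did not overlap (2 higher and 3 lower), against 42.3% of all genes (22.5% higher and 19.8% lower). With an array left out, the number of family genes called ran from 1 to 3, and Ret was called each time.

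**Figure D1:**
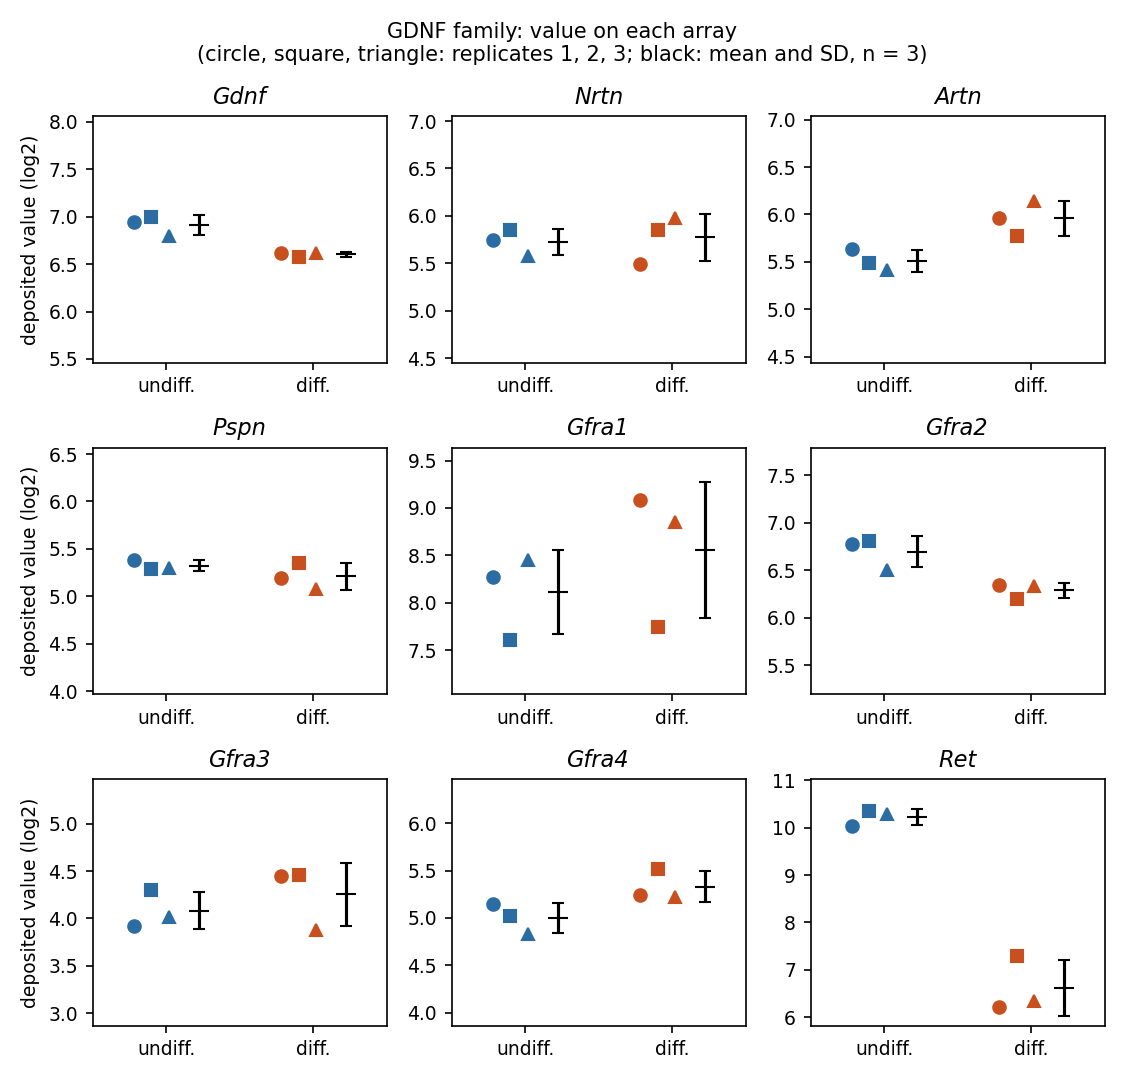
Deposited log2 values of the 9 genes on each of the 6 arrays, with the mean and SD of each group of 3. Panels span the same log2 range except that of Ret, which spans a wider range. Ret lay at 10.04 to 10.34 in the arrays labelled undifferentiated and at 6.21 to 7.30 in those labelled differentiated, and the other panels show shifts under 0.5 in the group means.

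Ret read 10.04, 10.34 and 10.30 in the arrays labelled undifferentiated and 6.21, 7.30 and 6.35 in those labelled differentiated. The groups lay apart by 2.74, and differentiated replicate 2 was the highest of its group. The means were 10.23 ± 0.16 and 6.62 ± 0.59 (SD, n = 3 each). Ret fell by 3.61 ± 0.23 (SE) on the log2 scale, with a limma 95% interval of -4.12 to -3.09 (limma adjusted p = 7.5e-07). Just 22 of the 14506 genes, Ret included, had a difference as low or lower (0.152%). Its value exceeded 97.5% to 98.2% of all probe sets on the arrays labelled undifferentiated and 66.1% to 80.7% on those labelled differentiated. When each array was left out in turn, the fall ran from 3.40 to 3.95, the larger without differentiated replicate 2.

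The glomus cell markers moved with Ret. All 14 measured markers of that list fell (14.9% of all genes did), with a median difference of -2.63, and their mean log2 value was 10.51 to 10.65 in the arrays labelled undifferentiated and 7.70 to 8.02 in those labelled differentiated. Within the latter group differentiated replicate 2 was the highest for Ret, while the 14 markers were divided, 8 of them highest and 3 lowest in that array. The marker mean there rested largely on Dbh, the enzyme that makes noradrenaline, which read 5.79, 9.03 and 7.04. Without Dbh, left out after seeing the data, the means of the other 13 markers were 7.84, 7.94 and 7.76 in the arrays labelled differentiated and 10.41 to 10.55 in those labelled undifferentiated. The 10 measured markers of mesenchyme and fibroblasts all rose (14.7% of all genes did), with means of 9.35 to 9.69 and of 10.81 to 10.89. Of the smooth muscle and pericyte list 4 of 8 rose and 1 fell, of the endothelial list 0 of 7 rose and 1 fell, and of the macrophage and leukocyte list 0 of 8 rose and 2 fell. In the autonomic neuron list, a further class of cells known to carry Ret, 3 of 9 rose and 3 fell, with means of 6.37 to 6.55 and of 6.04 to 6.51. The part of these shifts in the fall of Ret was not tested, and in such bulk samples fewer cells of a type and less RNA per cell cannot be told apart.

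**Figure D2:**
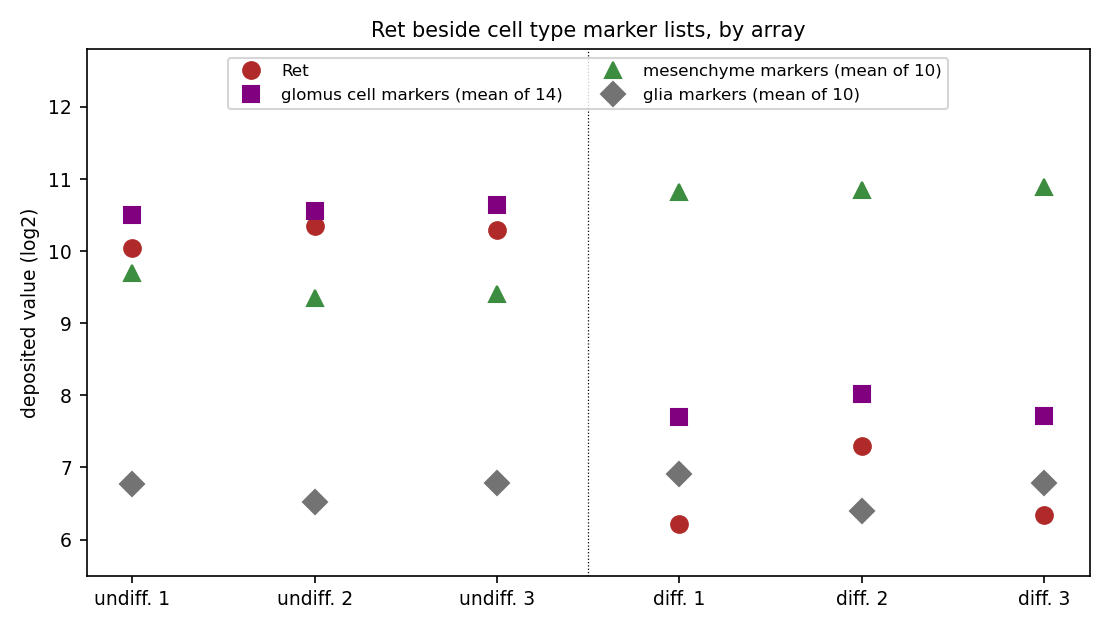
Deposited log2 value of Ret and mean log2 value of 3 marker lists on each array, the arrays labelled undifferentiated left of the dotted line. Ret and the glomus list were lower in every array labelled differentiated and the mesenchyme list higher, while the glial list overlapped. Heights of different symbols are not comparable, since brightness depends on the probes.

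The start of Ret is shown with that of Gdnf, its ligand gene that also fell, so that the DNA just before both genes can be set beside these values. Each line holds the 250 bases before the gene's start in RefSeq, build GRCr8, written 5′ to 3′ along the gene's strand. The Ret stretch is chr4:153040557-153040806 on the minus strand and the Gdnf stretch chr2:58621077-58621326 on the plus strand. Capitals mark matches, on either strand, to ACGTG or GCGTG, the core letters of the element bound by hypoxia-inducible factors, to GGGCGG, the GC box, or to TATAAA, the TATA box.
Ret: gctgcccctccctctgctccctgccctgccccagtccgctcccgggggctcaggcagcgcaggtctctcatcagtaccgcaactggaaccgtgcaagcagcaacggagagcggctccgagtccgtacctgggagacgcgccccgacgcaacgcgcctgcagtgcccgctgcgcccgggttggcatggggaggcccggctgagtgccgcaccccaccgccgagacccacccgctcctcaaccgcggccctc
Gdnf: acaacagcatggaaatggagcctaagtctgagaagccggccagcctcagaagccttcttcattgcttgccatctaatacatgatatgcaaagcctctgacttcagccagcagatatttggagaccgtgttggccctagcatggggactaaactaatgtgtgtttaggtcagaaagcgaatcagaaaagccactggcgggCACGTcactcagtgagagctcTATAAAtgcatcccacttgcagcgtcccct
The Ret stretch is 72.8% G and C and holds 0 matches to these 4 motifs, which says only that these letters are not in this window. The Gdnf stretch is 49.6% G and C. It holds ACGTG on the opposite strand, 51 to 47 bases before the start, and TATAAA on the gene's strand, 30 to 25 bases before it, and the matches do not overlap. Of 33469 RefSeq gene starts with the same window, 16.6% hold ACGTG, 25.9% GCGTG, 30.5% GGGCGG and 12.9% TATAAA. Of the 9 family genes 8 were matched in that table, all but Gfra2. Among the other family genes GGGCGG matched 2 times for Artn, once for Gfra1 and 3 times for Gfra3, GCGTG once for Nrtn, and 0 motifs for Pspn and Gfra4. A match is a description of letters and not a binding site.

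Among the ligands Gdnf and Artn differed in opposite directions, by small amounts. Gdnf, the founding ligand, which supports dopaminergic neurons, read 6.95, 7.00 and 6.79 in the arrays labelled undifferentiated and 6.62, 6.58 and 6.62 in those labelled differentiated. The groups did not overlap, and those labelled differentiated lay within a narrow range. Gdnf fell by 0.31 ± 0.10 (SE), 1.24-fold (limma adjusted p = 0.044). This call was lost without undifferentiated replicate 1 (adjusted p = 0.130) or 2 (0.128) and without differentiated replicate 1 (0.0807), 2 (0.0959) or 3 (0.0877). It was also lost with quantile normalization (0.073), without the mean-variance trend (0.0641) and with array weights (0.0507).

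Artn, the ligand that acts on sensory and sympathetic neurons, read 5.63, 5.48 and 5.41 in the arrays labelled undifferentiated. It read 5.97, 5.77 and 6.14 in those labelled differentiated, all of them higher. It rose by 0.45 ± 0.13 (SE), 1.37-fold (limma adjusted p = 0.0243). This call was lost without undifferentiated replicate 2 (adjusted p = 0.066) or 3 (0.0909), without differentiated replicate 1 (0.0621) or 3 (0.0974) and in the unmoderated test (0.0866).

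The other 2 ligand genes overlapped between the groups. Nrtn, the ligand best known from parasympathetic and enteric neurons, read 5.75, 5.85 and 5.58 in the arrays labelled undifferentiated and 5.49, 5.85 and 5.98 in those labelled differentiated. The difference was 0.05 with a limma 95% interval of -0.28 to 0.37, and its sign turned without undifferentiated replicate 3 (-0.027) and without differentiated replicate 3 (-0.055). Pspn read 5.39, 5.29 and 5.30 against 5.20, 5.36 and 5.08. Its difference was -0.11, with an interval of -0.39 to 0.17. Neither difference passed (limma adjusted p = 0.849 for Nrtn and 0.571 for Pspn).

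Of the co-receptors, Gfra1 varied most between arrays of a group. Gfra1, through which Gdnf signals, read 8.27, 7.61 and 8.45 in the arrays labelled undifferentiated and 9.08, 7.74 and 8.85 in those labelled differentiated. Replicate 2 was the lowest of both groups, and the groups overlapped. The means were 8.11 ± 0.44 and 8.56 ± 0.72 (SD, n = 3 each), and the difference of 0.45 ± 0.31 (SE) did not pass (limma adjusted p = 0.33, 95% interval -0.23 to 1.13). Without differentiated replicate 2 it was 0.86 and passed (adjusted p = 0.00879), while without differentiated replicate 1 it was 0.19 and without undifferentiated replicate 2 0.20. With the replicate number as a block, a pairing that was not settled, the difference of 0.45 passed (limma adjusted p = 0.0195). The mean of the 10 measured Schwann and sustentacular glia markers was also lowest in replicate 2 of each group, at 6.53 of a range up to 6.79 in the arrays labelled undifferentiated and at 6.39 of a range up to 6.91 in those labelled differentiated. In the glial list 3 genes rose, 1 fell and 6 did not pass. Of its markers, S100b, Sox10, Erbb3, Ngfr, Cdh19 and Egr2 were lowest in replicate 2 of both groups. Foxd3 was lowest in undifferentiated replicate 2 only, and Gfap in differentiated replicate 2 only. Mbp and Fabp7 were lowest in replicate 2 of neither group, and Gfap and Fabp7 were highest in undifferentiated replicate 2. Replicate 2 was also lowest in both groups for the adaptor list and the turnover list described below, but by smaller amounts. For the adaptor list it lay at 7.10 (labelled undifferentiated) and 7.26 (labelled differentiated), and the next lowest arrays at 7.16 and 7.28. For the turnover list it lay at 7.09 and 7.17, and the next lowest arrays at 7.23 and 7.34. For the glial list the next lowest arrays lay at 6.77 and 6.78. The adaptor and turnover lists are not lists of cell markers. The part of the glial list in the values of Gfra1 was not tested.

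Gfra2, the co-receptor preferred by neurturin, read 6.78, 6.81 and 6.50 in the arrays labelled undifferentiated and 6.34, 6.19 and 6.33 in those labelled differentiated. All 3 of the latter were lower. Gfra2 fell by 0.41 ± 0.12 (SE), 1.33-fold (limma adjusted p = 0.0222). The call was lost without undifferentiated replicate 1 (adjusted p = 0.0878) or 2 (0.0809), without differentiated replicate 2 (0.0644) and in the unmoderated test (0.0786).

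Gfra3 and Gfra4, the co-receptors preferred by artemin and persephin, did not pass. Gfra3 read 3.92, 4.30 and 4.02 in the arrays labelled undifferentiated and 4.44, 4.46 and 3.87 in those labelled differentiated, with a difference of 0.18 (95% interval -0.24 to 0.59). With single arrays removed it ran from 0.08 without differentiated replicate 2 to 0.37 without differentiated replicate 3. It was the dimmest of the family's probe sets relative to its arrays, above 30.6% to 40.1% of all probe sets. Gfra4 read 5.15, 5.02 and 4.83 against 5.24, 5.52 and 5.23. Its groups did not overlap, but they lay apart by 0.08. The difference of 0.33 had a limma 95% interval of 0.01 to 0.64 and did not pass after adjustment over all genes (limma adjusted p = 0.114).

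**Figure D3:**
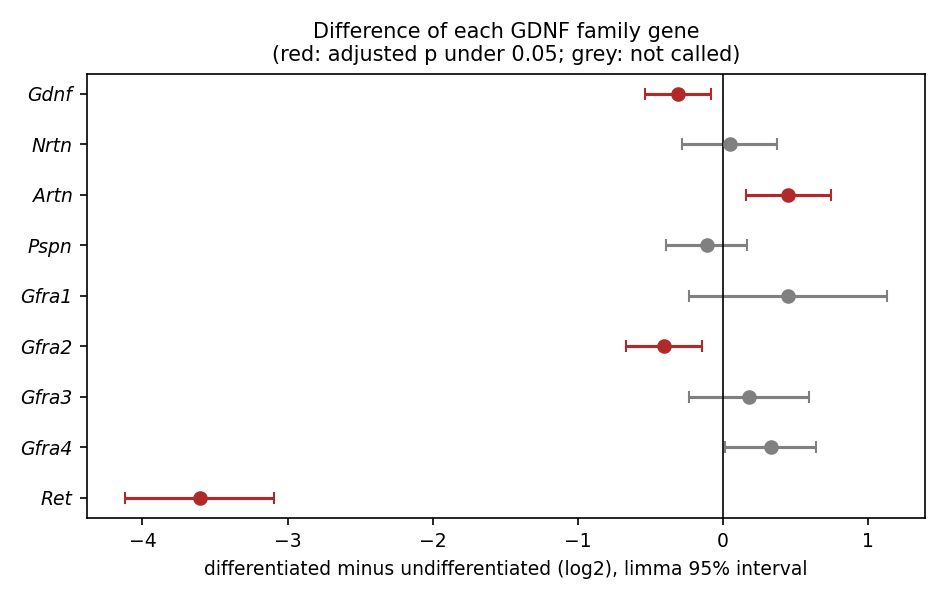
Difference of each of the 9 genes, labelled differentiated minus labelled undifferentiated, on the log2 scale, with limma 95% intervals that are not adjusted for the number of genes. Ret lies at -3.61, and each of the other 8 lies between -0.41 and 0.45.

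How far these values stood above background is not given in the table. As a yardstick for dim probe sets, the 1287 probe sets named for olfactory, vomeronasal and trace amine receptors, most of which are made in the nose, had a 95th percentile of 3.98 to 4.23 by array. Gfra3 lay above it on 4 of the 6 arrays, and the other 8 genes on all 6. The carotid body is known to make some olfactory receptors, so the yardstick is rough.

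Differences in the genes that Ret works with were smaller than that of Ret and went both ways. Of 23 measured adaptors and enzymes that act downstream of Ret, 9 rose, 5 fell and 9 did not pass, with a median difference of 0.06, as for all genes. The share called was 60.9%, against the 29.5% of all genes. The 3 with the smallest p among those that rose were Pdlim7, also known as enigma, which binds the Ret tail (1.06 ± 0.11, SE), Dok1, a docking protein (0.93 ± 0.12), and Shc3, an adaptor of neurons (0.86 ± 0.15). Among those that fell they were the protein kinase C gene Prkca (-0.83 ± 0.13) and the adaptors Grb10 (-0.78 ± 0.15) and Gab2 (-0.68 ± 0.14). None of these 6 genes had a limma adjusted p above 0.00266.

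Of 13 measured genes for the turnover of Ret, its phosphatases and the damping of its signal, 5 rose, 4 fell and 4 did not pass, with a median of 0.16 and 69.2% called. The inhibitors of receptor tyrosine kinase signalling Spry2, Spry1 and Spred1 rose by 1.15 ± 0.20, 0.99 ± 0.14 and 0.99 ± 0.13 (SE). Ptprf, a receptor phosphatase of the LAR type known to act on Ret, read 8.72, 8.70 and 8.80 in the arrays labelled undifferentiated and 7.42, 7.36 and 7.52 in those labelled differentiated. It fell by 1.31 ± 0.09 (SE, limma adjusted p = 1.45e-06), with no overlap. Cd2ap, an endocytic adaptor, and Cblb, a ubiquitin ligase, fell by 0.71 and 0.56. Sorl1, Gas1 and Cbl were not analysed here.

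Gdnf can also act without Ret, through the adhesion molecule Ncam1 and the proteoglycan Sdc3. Ncam1 read 8.34, 8.21 and 8.38 in the arrays labelled undifferentiated and 7.55, 7.64 and 7.52 in those labelled differentiated. It fell by 0.74 ± 0.09 (SE, limma adjusted p = 0.000131), with no overlap between groups. Sdc3 overlapped, with 9.12, 8.47 and 8.72 against 9.54, 8.79 and 9.06, and its difference of 0.36 ± 0.20 did not pass (adjusted p = 0.211). In the list of other Gdnf receptors and Ret partners 2 of 9 measured genes rose, 1 fell and 6 did not pass, with a median of 0.30 and 33.3% called. The 2 that rose were the integrin chains Itgb1 (0.81 ± 0.12, SE) and Itga6 (0.86 ± 0.20). Without differentiated replicate 2, 5 genes of this list passed.

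Of 11 measured transcription factors known to act upstream of Ret in neural crest, neurons or kidney, 1 rose, 4 fell and 6 did not pass. The median was 0.04, 45.5% were called, and the falls were the larger changes. Phox2a, a homeodomain factor of autonomic neurons and glomus cells, read 8.57, 8.19 and 7.99 in the arrays labelled undifferentiated and 6.40, 6.55 and 6.12 in those labelled differentiated. All 3 of the latter were lower, and Phox2a fell by 1.89 ± 0.16 (SE, limma adjusted p = 5.33e-06). Hand2, a helix-loop-helix factor of the sympathetic lineage, fell by 1.93 ± 0.17. Isl1, a LIM homeodomain factor, fell by 1.52 ± 0.15. Zeb2, a zinc finger factor of the neural crest, rose by 0.59 ± 0.14 (adjusted p = 0.00857). The falls ran beside that of the glomus markers given above, whose part was not tested.

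Genes known to respond to Gdnf and Ret did not move in a single direction. Of 14 measured, 4 rose, 3 fell and 7 did not pass, with a median of 0.22. These 7 called genes stand against 29.5% of all genes. The ERK-induced genes Dusp6, Egr1 and Etv1 rose by 1.75 ± 0.16, 1.71 ± 0.14 and 1.11 ± 0.15 (SE); they answer to many growth factors. The related factors Etv4 and Etv5, both known targets of Ret in the kidney, went opposite ways. Etv4 read 5.69, 5.09 and 5.60 in the arrays labelled undifferentiated and 6.44, 6.29 and 6.56 in those labelled differentiated, and rose by 0.97 ± 0.16 (limma adjusted p = 0.000862). Etv5 read 6.89, 6.62 and 6.98 against 6.14, 6.23 and 5.97, and fell by 0.71 ± 0.13 (adjusted p = 0.0013). Neither gene's groups overlapped. Vgf, a secreted peptide precursor of neuroendocrine cells, fell by 3.24 ± 0.20, and the potassium channel Kcnk2 by 0.87 ± 0.17. Dusp6, Egr1, Etv1 and Etv4 were thus higher in the group labelled as grown without the mitogens, as were Spry1, Spry2 and Spred1 above. Etv5 was lower there, and Spry4 and Fos did not pass. For these genes, as for Th and the other glomus markers, whether the labels match the cultures was not tested.

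Of 13 measured neurotrophic factors outside the family, 5 rose, 2 fell and 6 did not pass, with a median of 0.09 and 53.8% called. Pdgfa, Fgf2 and Lif rose by 1.08, 0.88 and 1.06. Mdk, the heparin-binding factor midkine, fell by 1.32 ± 0.12 (SE). Cdnf, which has a similar symbol but is not a member of the Gdnf family, fell by 0.47 ± 0.13 (limma adjusted p = 0.0198). The call of Cdnf was lost without undifferentiated replicate 2 (adjusted p = 0.0741) or 3 (0.0616) and without differentiated replicate 3 (0.0612).

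**Figure D4:**
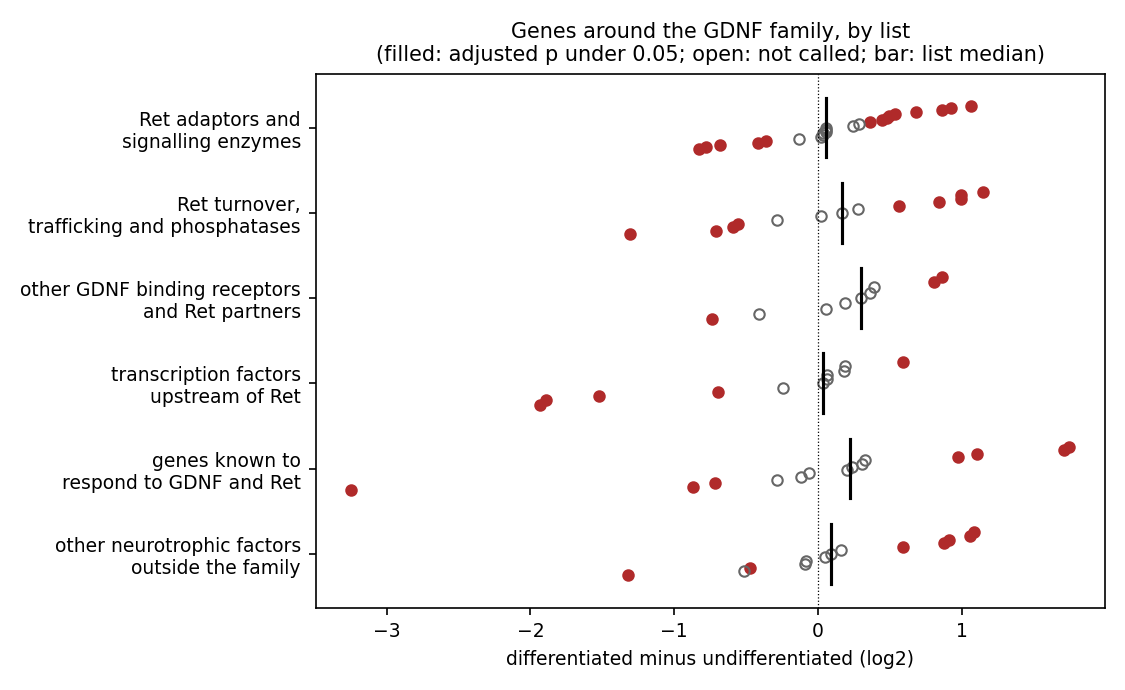
Differences of the genes of the 6 lists around the family, labelled differentiated minus labelled undifferentiated, on the log2 scale, 1 point a gene. Each list holds genes called in both directions; the lowest point is Vgf at -3.24 and the highest Dusp6 at 1.75.

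For each of the 4 family genes that passed, the genes with the most similar values over the 6 arrays were found by Pearson correlation, as a description. The arrays form 2 groups, so any gene with a clear group difference correlates highly. For Ret the 3 nearest were the carbonic anhydrase Car12 (r = 0.999), the proton pump subunit Atp6v0e1 (0.999) and the calcium sensor of exocytosis Syt7 (0.999), which fell by 4.02, 0.56 and 1.99, and 944 genes (6.51%) reached 0.95. For Gdnf they were Zc3h4 (0.997), Sytl1 (0.991) and Gfra2 (0.989), and 115 genes reached 0.95. For Gfra2 they were Caskin1 (0.994), Adnp (0.991) and Gdnf (0.989), and 63 genes reached it. For Artn they were Mex3b (0.994), Dcakd (0.991) and Oacyl (0.991), with 157 genes.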

How the data were processed

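RNA from 6 samples was measured on Affymetrix arrays, with 100 ng of RNA as input, per the labels. The authors deposited a log2 value for each of 29214 probe sets on each array; the base was inferred from the range. The background correction and normalization behind them were not given in the sources used here. The values were taken as they stand. A fold is 2 to the power of the log2 difference. Per the platform's annotation, 15310 probe sets had 1 symbol and 323 several; the brightest single-symbol probe set by mean stood for each of 14506 genes.

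Groups and replicate numbers came from the titles. The labels do not name separate cultures or animals for the arrays of a group, so a p-value here reflects array-to-array spread that may be technical. All arrays entered limma 3.58.1 in R 4.3.3 (lmFit, eBayes with trend, two-sided, no block) with p-values adjusted by Benjamini-Hochberg across all genes and a threshold of 0.05; the code was tested on simulated data. With 3 arrays a group, precision is limited. Deviations of same-numbered arrays from their group means correlated at 0.12, 0.12 and -0.00376, and those of differently numbered arrays at -0.15 to 0.06. This did not settle whether the numbers mark pairs, so they were not taken as pairs. Family members, lists and motifs were chosen with earlier results of these data known. The genes named are the family, Th, the 3 called genes of smallest p in each direction of each list, the set genes Ncam1, Sdc3, Etv4, Etv5, Sorl1 and Gas1 and the 3 genes most like each called member; Dbh and Cbl were added after values were seen. Alternatives were a replicate block, 2 other normalizations, a filter at the 40th percentile of probe set means, other probe set rules, variance models and thresholds, and leaving out each array. Figures used matplotlib 3.10.9 in Python 3.11.15.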

Additional observations from a re-analysis of the deposited data

How the results depend on the processing

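The fall of Ret was called under every alternative run, and Nrtn, Pspn, Gfra3 and Gfra4 under none of those that kept them (Gfra3 was among the dim genes left out). Family genes called numbered 4 of 9; they were 3 with quantile normalization, without the trend or with array weights, 2 in the unmoderated test, 1 at a threshold of 0.01 and 1 to 3 with single arrays removed. Differences then ran from -0.37 to -0.26 for Gdnf, 0.36 to 0.54 for Artn, 0.19 to 0.86 for Gfra1, -0.51 to -0.35 for Gfra2, 0.08 to 0.37 for Gfra3, 0.23 to 0.40 for Gfra4, -0.19 to -0.05 for Pspn and -0.055 to 0.19 for Nrtn, which turned to -0.027 without undifferentiated replicate 3 and to -0.055 without differentiated replicate 3. The difference of Gdnf was not called with quantile normalization (-0.28), without the trend (-0.31) or with array weights (-0.29). In the unmoderated test Artn (0.45) and Gfra2 (-0.41) kept their values without a call, and the number of all genes called was 2740 against 4286. That test called 9 of the 23 measured adaptor genes, against 14 in the main fit, and 5 of the 13 measured turnover genes, against 9. The replicate number was also used as a block, a pairing that the array correlations did not settle. Gdnf (-0.31) was then not called (limma adjusted p = 0.0603), while Gfra1 (0.45) was (adjusted p = 0.0195). In all, 4 family genes and 4430 genes were called, and the list of other Gdnf receptors and Ret partners had 5 called genes. That list had 3 to 5 with single arrays removed. The other 33 named genes gave 528 values under 16 alternatives, 517 of them on the same side of the threshold, 10 that lost a call, 1 that gained it and 0 that turned. Which background the authors removed is unknown, which limits all dim values; the causes of lost calls were not tested.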
